A study of Homo sapiens with 40 samples.

Results

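SU-DHL-4 is an established cell line from a diffuse large B-cell lymphoma, a fast-growing cancer of B cells, and is labelled as carrying mutant EZH2. Its response to GSK126, a small-molecule inhibitor of EZH2, was measured on 2 arrays of cells given 500 nM GSK126 in 0.1% DMSO and on 2 arrays of cells given 0.1% DMSO alone, each for 72 h. These 4 arrays were chosen by their titles from 40 arrays of 10 lymphoma lines treated in the same way. The response was described over the 15211 genes that passed a filter on dim signals, of 19775 genes with a probe set of a single symbol. The label gives SU-DHL-4 a growth IC50 (the concentration that lowers proliferation by a set amount) of 4828 nM, and the arrays do not measure growth. The other lines with mutant EZH2 are Pfeiffer (growth IC50 28 nM), WSU-DLCL2 (134 nM), KARPAS-422 (232 nM), SU-DHL-10 (448 nM), SU-DHL-6 (582 nM) and DB (861 nM). HT (516 nM), OCI-LY-19 (1019 nM) and Toledo (13786 nM) are labelled wild type for EZH2. Every line had its own DMSO arrays, and the labels do not name the EZH2 mutation itself.

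EZH2 is the catalytic subunit of Polycomb repressive complex 2 (PRC2), which also needs EED and SUZ12 and places methyl groups on lysine 27 of histone H3. That mark keeps genes silent, and germinal centre B cells, from which this lymphoma arises, use it to hold back genes of cell-cycle exit and of later differentiation. Mutations of EZH2 in lymphoma raise the fully methylated form of the mark, and an inhibitor such as GSK126 lets it fade as cells divide, after which silenced genes can be transcribed.

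The question put to these arrays was what still responds in a mutant line whose growth resists the inhibitor. The 4 arrays were close to each other. Pearson's r over all probe sets was 0.9844 between the GSK126 arrays and 0.9814 between the DMSO arrays, and it lay between 0.9801 and 0.9835 across the treatments. The DMSO arrays thus resembled a GSK126 array more than each other. For each it was the GSK126 array of the same number (r = 0.9835 for replicate 1 and 0.9822 for replicate 2). Array medians of the MAS5 signal were 71.2 and 65.8 on the GSK126 arrays and 70.3 and 64.4 on the DMSO arrays. B cell identity was checked with a list of markers: all 8 B cell markers on the array, such as MS4A1 and CD79A, and all 8 germinal centre markers, such as BCL6 and MME, lay above the array median on all 4 arrays. Of the markers of other cells, 1 of 9 for T and NK cells, 0 of 6 for myeloid cells, 2 of 8 for stromal and epithelial cells and 2 of 6 for erythroid and endothelial cells did so. Their summed signals were 294 to 370 against 257 to 315 for T and NK cells, 178 to 200 against 156 to 244 for myeloid cells, 5302 to 5921 against 5181 to 5434 for stromal and epithelial cells and 318 to 440 against 377 to 412 for erythroid and endothelial cells, with GSK126 before DMSO. The tested markers of other cells were 6 T and NK, 3 myeloid, 6 stromal and epithelial and 4 erythroid and endothelial genes. None of these tested genes was called in either direction. At the shares called among all tested genes (2.14% risen and 0.454% fallen), so few genes can hold no call. The log2 fold changes of the tested T and NK genes ran from -0.64 to 1.46. CD8A read 62 and 46.8 under GSK126 against 6.07 and 11 under DMSO. The stromal sum rests on DCN, whose probe set read 5421 and 4812 under GSK126 and 4777 and 5128 under DMSO. By the titles, both arrays of each group are biological replicates. How their cultures were separated is not stated in the labels, so the p-values measure the spread between arrays of the same group. That spread was estimated per gene over the groups of all lines together. The p-values and standard errors given for SU-DHL-4 thus rest mostly on the spread within other lines. All adjusted p-values in the text are from limma.

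EZH2 itself stayed near its level: 3595 and 3619 on the GSK126 arrays, against 3815 and 3731 on the DMSO arrays, a log2 fold change of -0.06 ± 0.06 (SE; adjusted p = 0.725). GSK126 inhibits the enzyme and does not target its transcript, so this is no check of the treatment. EED read 4003 and 3964 under GSK126 against 3885 and 4009 under DMSO, and SUZ12 read 5688 and 5318 against 5954 and 5861. The arrays of the treatments overlapped for EED and not for SUZ12, whose log2 fold change of -0.10 ± 0.07 did not pass the test (adjusted p = 0.629). Of the 9 tested core subunits and demethylases of lysine 27, which remove the mark, none was called. Of all tested genes 2.14% rose and 0.454% fell, shares at which 9 genes can hold no call. The log2 fold changes of these 9 ran from -0.21 to 0.01. EZH1, the second methyltransferase of the complex, had 0.01 ± 0.10, and the demethylases KDM6A and KDM6B had -0.14 ± 0.14 and -0.08 ± 0.13. EZH2 was called fallen in 5 other lines and EED in 6. For both the response of SU-DHL-4 was higher than the mean of the other 6 mutant lines, by 0.22 for EZH2 (adjusted p = 0.0336) and by 0.20 for EED (adjusted p = 0.0179). Leaving out single SU-DHL-4 arrays raised these to between 0.0713 and 0.195 for EZH2 and between 0.0457 and 0.099 for EED, which passed only without DMSO replicate 2.

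Across all tested genes 326 rose and 69 fell at an adjusted p under 0.05 (limma, Benjamini-Hochberg over 15211 genes), which is 2.14% and 0.454% of the genes tested. At an unadjusted p under 0.05 there were 1998 genes. The rises were also the larger changes: 60 of them reached 2-fold on the log2(signal + 17.72) scale, against 5 of the falls, and the median log2 fold change was 0.56 among risen genes, -0.31 among fallen genes and 0.01 over all tested genes. Of the 60 genes that rose 2-fold or more, 33 (55.0%) lay below the array median on both DMSO arrays, and 7 remained below it on both GSK126 arrays. Among all 326 risen genes 43 (13.2%) did so on both DMSO arrays, and among all tested genes 21.1%. With arrays set to equal medians over the tested genes, an alternative added after the data were seen, 235 genes rose and 208 fell, a share of 53% risen against 82.5% as scaled by the authors. With equal medians over all probe sets 196 rose and 28 fell. Leaving out 1 array gave 247 calls without GSK126 replicate 1, 171 without GSK126 replicate 2, 359 without DMSO replicate 1 and 179 without DMSO replicate 2, against 395 with all 4. Of the 395 genes 101 kept their call under each of the 4 omissions and 77 lost it under every one. In bulk cultures, a change in the number of cells that express a gene and a change in its RNA per cell cannot be told apart.

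**Figure D1:**
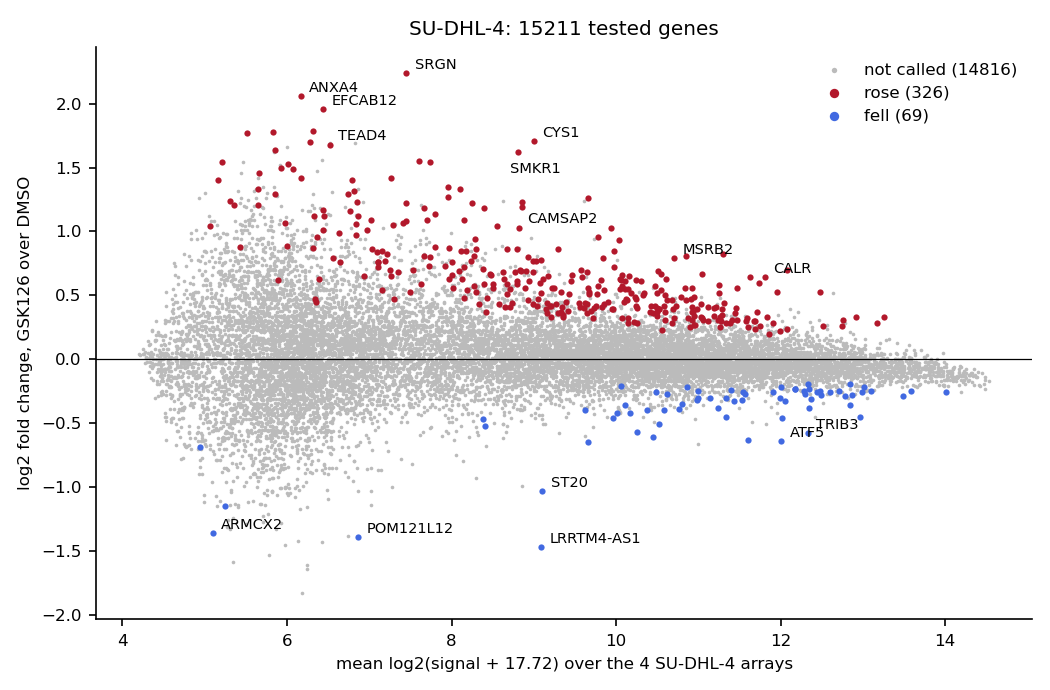
Each point is 1 of the 15211 tested genes, with its mean log2(signal + 17.72) over the 4 SU-DHL-4 arrays on the horizontal axis and its log2 fold change, GSK126 over DMSO, on the vertical axis. The 326 risen genes (red) reach 2.24 for SRGN and are spread over dim and bright genes, and the 69 fallen genes (blue) mostly lie close to 0, with LRRTM4-AS1 lowest at -1.47.

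SRGN, which encodes serglycin, the proteoglycan core of secretory granules, had the largest called rise. Its signal was 369 and 358 on the GSK126 arrays, against 68.9 and 56.9 on the DMSO arrays, a log2 fold change of 2.24 ± 0.13 (adjusted p = 7.3e-12). Both GSK126 arrays lay far above both DMSO arrays. A second probe set of SRGN differed by 1.69, and one more, with signals of 6.65 and 18.6 under GSK126 and 26.5 and 8.43 under DMSO, by -0.19. ANXA4, an annexin that binds membrane phospholipids in the presence of calcium, read 171 and 96.6 under GSK126 against 19.5 and 15.7 under DMSO (2.06 ± 0.25, adjusted p = 4.94e-06), and its other probe set differed by 1.64. EFCAB12, an EF-hand protein, read 131 and 179 under GSK126 against 22.9 and 29.5 under DMSO (1.96 ± 0.36, adjusted p = 0.00147). TEAD4, a DNA-binding factor of the Hippo pathway, read 150 and 143 under GSK126 against 32.4 and 35.1 under DMSO (1.68 ± 0.24, adjusted p = 5.15e-05), and its second probe set differed by 1.02. For these 4 genes the treatments were separated on every array, and no omission of a single array ended the call.

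Among the rest of the 16 largest rises was TLN2. It encodes talin 2, a link between integrins and actin, and had signals of 145 and 117 in treated cells, against 25.1 and 25.1 in DMSO cells (1.79 ± 0.47, adjusted p = 0.0327). Its call was lost without any 1 of the 4 arrays (adjusted p = 0.117 to 0.207), and its mean over 3 probe sets changed by 0.72 (adjusted p = 0.228). CYS1, a protein of the primary cilium, was brighter, at 848 and 976 under GSK126 against 281 and 250 under DMSO (1.71 ± 0.36, adjusted p = 0.00571), and lost its call without DMSO replicate 2 (0.0864) or GSK126 replicate 2 (0.0884). DIXDC1, a Wnt pathway protein with a DIX domain, read 74.3 and 60.3 against 6.79 and 7.37 (1.77 ± 0.21, adjusted p = 4.78e-06). Its other probe sets differed by -0.17 and -0.22, so that the mean over the 3 was 0.46 (adjusted p = 0.423). RTKN read 92.5 and 91.8 against 25.7 and 15.4 (1.53 ± 0.28, adjusted p = 0.00151), which became 0.0532 without DMSO replicate 2. Its other probe set differed by 0.44. DLL4, a Notch ligand, read 102 and 69.6 against 20.6 and 16.6 (1.5 ± 0.40, adjusted p = 0.0375), and its adjusted p lay between 0.0987 and 0.271 when any 1 array was left out. In each of these genes both GSK126 arrays exceeded both DMSO arrays.

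The remaining members of that group were MNX1-AS1 (1.78 ± 0.27), LZTS3 (1.70 ± 0.34), RBMS3-AS3 (1.64 ± 0.34), SMKR1 (1.62 ± 0.17), SLC30A3 (1.55 ± 0.30), TMEM273 (1.54 ± 0.41) and PROX2 (1.54 ± 0.34), all on the log2 scale. MNX1-AS1 and RBMS3-AS3 are antisense RNAs, PROX2 is a homeobox gene and LZTS3 is a scaffold protein of synapses. PROX2 read 57.5 and 34.9 under GSK126, against 6.47 and 1.61 under DMSO, so that its fold change depends on signals far below the array median. MNX1-AS1 kept its call without each array in turn. SMKR1 did too. The call of LZTS3 ended without GSK126 replicate 1 (adjusted p = 0.0943) or DMSO replicate 1 (0.0545), and that of PROX2 without GSK126 replicate 1 (0.146) or DMSO replicate 2 (0.13). It ended for RBMS3-AS3 without GSK126 replicate 2 (0.0746) and for SLC30A3 without DMSO replicate 1 (0.0942). TMEM273 lost it without GSK126 replicate 1 (0.195), GSK126 replicate 2 (0.154) or DMSO replicate 2 (0.461), and its second probe set differed by 0.04 (mean of both 0.79, adjusted p = 0.281).

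The falls were fewer, and the largest were in genes of low or moderate signal. LRRTM4-AS1, an antisense RNA at a gene of synaptic adhesion, read 314 and 304 on the GSK126 arrays, against 890 and 885 on the DMSO arrays, a log2 fold change of -1.47 ± 0.27 (adjusted p = 0.00159). POM121L12 read 59.9 and 49.5 against 160 and 183 (-1.39 ± 0.27, adjusted p = 0.00255). ARMCX2, a member of the X-linked armadillo repeat family, read 3.35 and 3.92 against 39.9 and 34.7 (-1.36 ± 0.36, adjusted p = 0.0313). The groups did not overlap in any of them, but ARMCX2 was under the array median on all 4 arrays and its adjusted p lay between 0.139 and 0.165 without any 1 of them. SHROOM3, an actin-binding regulator of cell shape, read 5.75 and 9.99 against 45.8 and 32.9 and fell by 1.15 on the log2 scale (adjusted p = 0.0287, and 0.0864 to 0.211 without any 1 array). Its other probe sets differed by -0.10 and -0.01 (mean of all -0.42, adjusted p = 0.305). ST20 fell by 1.03, with 309 and 436 in treated cells and 866 and 683 in DMSO cells, on a probe set whose suffix marks possible hybridisation to other transcripts. The adjusted p of ST20 was 0.0756 without GSK126 replicate 1, its second probe set differed by 0.01, and that of POM121L12 was 0.0532 without DMSO replicate 2 and 0.0579 without GSK126 replicate 2. The mean of all probe sets of POM121L12 changed by -0.86 (adjusted p = 0.0945).

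Bright genes that fell included ATF5, a transcription factor of the amino acid and mitochondrial stress response, with 3522 and 3066 under GSK126 and 4698 and 5575 under DMSO (-0.64 ± 0.12, adjusted p = 0.00234). WARS1, the tryptophanyl-tRNA synthetase, read 2500 and 2443 against 3740 and 3947 (-0.63 ± 0.13, adjusted p = 0.00546). CPSF7, a cleavage and polyadenylation factor, read 1114 and 1107 against 1801 and 1610 (-0.61 ± 0.14), and CDKN2D, an inhibitor of cyclin-dependent kinases, read 610 and 645 against 974 and 1021 (-0.65 ± 0.17, adjusted p = 0.0287). All 4 genes were lower on both GSK126 arrays than on either DMSO array. The adjusted p passed 0.05 without DMSO replicate 2 or GSK126 replicate 2 for ATF5 (0.101 and 0.0831) and WARS1 (0.087 and 0.0703). For CDKN2D it did so without any 1 array (0.0909 to 0.225), and for CPSF7 without DMSO replicate 1 (0.12) or either GSK126 array (0.0851 and 0.102). Averaged over all their probe sets, ATF5 (-0.54, adjusted p = 0.197), CPSF7 (-0.37, 0.583) and CDKN2D (-0.33, 0.437) also missed the threshold. CBR1, which fell by 0.69, read 6.09 and 6.69 against 35.2 and 11 and had an adjusted p of 0.564 without DMSO replicate 1, and of 0.167 and 0.155 when GSK126 replicate 1 or 2 was left out.

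**Figure D2:**
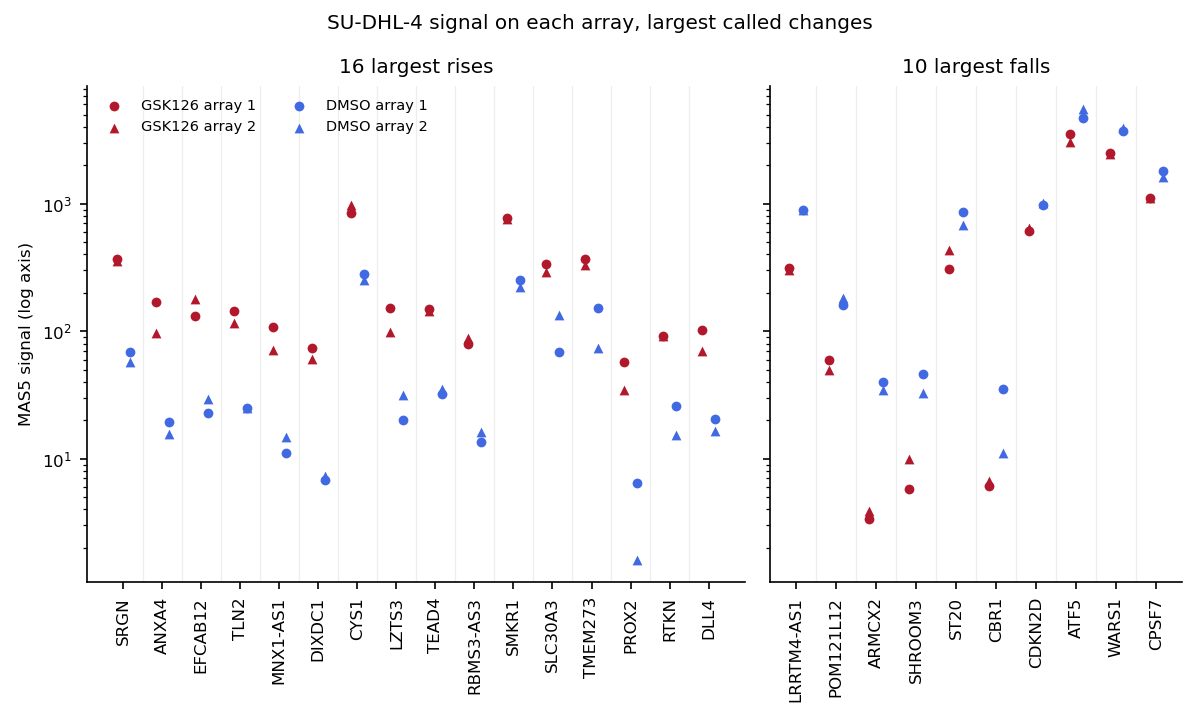
MAS5 signal (log axis) on each of the 4 SU-DHL-4 arrays for the 16 called genes with the largest rise (left panel) and the 10 with the largest fall (right panel), with GSK126 arrays in red left of DMSO arrays in blue. No gene shown overlaps between the treatments, and most of the risen genes are dim under DMSO, CYS1 and SMKR1 being the brighter ones.

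Promoters of 4 risen genes, picked by the genes' responses, are shown for their CG dinucleotides, the sequence feature by which Polycomb target promoters are best known in mammals. The sequences are from RefSeq on GRCh38.p14, plus strand, from 250 bases before to 50 after the start of the gene, with CG dinucleotides in capitals. ANXA4 (chr2:69643558-69643857) had the second largest rise, SMKR1 (chr7:129502281-129502580) and PRKAR2B (chr7:107044455-107044754) rose in SU-DHL-4 and in 8 other lines each, and CD9 (chr12:6199696-6199995) was called in SU-DHL-4 and in no other line.
ANXA4: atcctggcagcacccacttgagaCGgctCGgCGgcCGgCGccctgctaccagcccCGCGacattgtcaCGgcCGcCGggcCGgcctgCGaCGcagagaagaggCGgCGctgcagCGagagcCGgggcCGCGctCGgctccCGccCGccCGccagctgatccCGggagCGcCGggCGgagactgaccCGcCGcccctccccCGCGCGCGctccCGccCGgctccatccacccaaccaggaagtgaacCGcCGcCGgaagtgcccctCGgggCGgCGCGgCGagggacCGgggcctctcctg
SMKR1: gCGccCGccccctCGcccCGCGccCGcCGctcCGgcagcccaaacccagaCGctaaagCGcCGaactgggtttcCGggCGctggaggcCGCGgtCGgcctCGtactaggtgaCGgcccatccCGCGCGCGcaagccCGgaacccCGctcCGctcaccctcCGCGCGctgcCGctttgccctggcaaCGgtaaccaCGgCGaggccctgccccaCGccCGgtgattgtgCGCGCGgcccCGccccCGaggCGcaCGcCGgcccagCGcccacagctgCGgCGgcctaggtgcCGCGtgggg
PRKAR2B: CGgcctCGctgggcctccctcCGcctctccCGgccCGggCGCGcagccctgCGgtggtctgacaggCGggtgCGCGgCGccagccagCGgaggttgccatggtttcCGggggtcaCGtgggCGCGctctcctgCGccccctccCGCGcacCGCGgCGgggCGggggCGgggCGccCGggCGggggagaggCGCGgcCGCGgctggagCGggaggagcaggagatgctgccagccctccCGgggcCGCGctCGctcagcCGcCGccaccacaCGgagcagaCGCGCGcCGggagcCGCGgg
CD9: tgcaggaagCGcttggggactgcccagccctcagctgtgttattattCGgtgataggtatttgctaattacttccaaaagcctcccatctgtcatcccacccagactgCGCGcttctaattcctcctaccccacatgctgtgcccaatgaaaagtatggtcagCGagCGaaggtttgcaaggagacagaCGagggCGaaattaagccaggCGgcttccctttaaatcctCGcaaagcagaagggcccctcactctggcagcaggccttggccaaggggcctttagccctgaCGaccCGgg
The 300 bases hold 44 CG dinucleotides at ANXA4, 47 at SMKR1, 46 at PRKAR2B and 12 at CD9. Their ratios of observed to expected CG were 0.97, 1.07, 0.92 and 0.53 in that order, counted on 1 strand since CG reads the same on both. Among all 35116 promoters of the table the median was 14 CG dinucleotides and a ratio of 0.58, and 48.9% had a ratio of at least 0.6. These 4 promoters describe only themselves.

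Most genes that changed in SU-DHL-4 were also called in other lines. Of the 326 risen genes 294 (90.2%) were called risen in at least 1 other line, against 37.8% of all tested genes, and of the 69 fallen genes 65 (94.2%) were called fallen in at least 1 other line, against 28.3%. Each line has its own arrays, while the estimate of the spread per gene is common to all lines, so that genes with a small spread are called more easily in each. WSU-DLCL2 shared 197 risen genes, which is 60.4% of those of SU-DHL-4 and 9.3% of its own, with 13.9% of all tested genes risen there. HT, labelled wild type, shared 174, or 53.4% of those of SU-DHL-4 and 18.1% of its own, with 6.31% of tested genes risen. SU-DHL-10 shared 192 (58.9% and 11.5%, background 11%), KARPAS-422 shared 171 (52.5% and 7.26%, background 15.5%), Pfeiffer shared 159 (48.8% and 7.14%, background 14.6%) and SU-DHL-6 shared 157 (48.2% and 13.9%, background 7.42%). DB shared 78 (23.9% and 20.5%, background 2.5%), OCI-LY-19 shared 40 (12.3% and 13.4%, background 1.97%) and Toledo shared 0 of its 21 (background 0.138%). Some of the 326 genes were called fallen elsewhere: 34 in KARPAS-422, 22 in WSU-DLCL2, 16 in Pfeiffer, 9 in SU-DHL-10, 4 in DB, 6 in SU-DHL-6, 3 each in HT and OCI-LY-19 and 0 in Toledo. Of the 69 fallen genes 50 also fell in WSU-DLCL2 (72.5%, and 2.59% of its own falls), where 12.7% of tested genes fell, 39 in SU-DHL-10 (56.5% and 3.58%, background 7.16%), 31 in KARPAS-422 (44.9% and 1.52%, background 13.4%) and 30 in Pfeiffer (43.5% and 1.99%, background 9.93%). The falls shared were 29 in HT (42% and 6.35%, background 3%), 23 in SU-DHL-6 (33.3% and 4.25%, background 3.56%), 4 in OCI-LY-19 (5.8% and 5.97%, background 0.44%), 2 in DB (2.9% and 2.13%, background 0.618%) and 0 in Toledo (background 0.0263%). The median log2 fold change of the 326 genes was 0.46 in WSU-DLCL2, 0.44 in SU-DHL-10, 0.36 in HT, 0.15 in DB, 0.11 in OCI-LY-19 and 0.01 in Toledo. Medians over all tested genes in those lines ran from 0.00 to 0.07. The R tag of the array descriptions, whose meaning is not given, is R7 for SU-DHL-4, WSU-DLCL2, SU-DHL-10, HT and DB. It is R6 for Pfeiffer, KARPAS-422 and Toledo and R8 for OCI-LY-19 and SU-DHL-6, so that 3 of the other 6 mutant lines carry another tag than SU-DHL-4. For these 5 lines the tag and the line cannot be told apart.

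None of the 326 genes rose in all 9 other lines, since Toledo shared 0 of its 21 risen genes. In 7 or more other lines 30 of the 326 were called risen. The share of all tested genes that did so was not counted, so this number only describes the 326. SMKR1, a small lysine-rich protein, read 777 and 756 on the GSK126 arrays, against 253 and 224 on the DMSO arrays (adjusted p = 1.06e-06), and rose in every other line except Toledo, where it changed by 0.02. PRKAR2B, a regulatory subunit of protein kinase A, read 431 and 404 against 177 and 135 (1.33 ± 0.23, adjusted p = 0.000842), and its change was 1.42 in OCI-LY-19 and 0.10 in Toledo. MSRB2, a methionine sulfoxide reductase of mitochondria, read 2181 and 2169 against 1287 and 1209 (0.79 ± 0.13). Both treatments were clearly apart in these 3 genes, and Toledo was in each the line without a call. GMDS, the first enzyme of GDP-fucose synthesis, read 1409 and 1463 against 748 and 744 (0.93 ± 0.11). CAMSAP2, which caps microtubule minus ends, read 647 and 607 against 292 and 303 (1.03 ± 0.08), and FZD3, a Wnt receptor, read 1197 and 1222 against 641 and 591 (0.96 ± 0.10). Like SMKR1, GMDS, CAMSAP2 and FZD3 stayed called without each array in turn. As to the others, MXRA7 (1.18 ± 0.14), FABP6 (1.09 ± 0.19), FKBP1B (0.99 ± 0.24) and PCTP (0.86 ± 0.14) also rose. FKBP1B lost its call without DMSO replicate 2 (adjusted p = 0.241) or GSK126 replicate 2 (0.244). With the mean of all probe sets, FABP6 (0.36, adjusted p = 0.452), MXRA7 (0.42, 0.455) and MSRB2 (0.51, 0.0587) missed the threshold.

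A second view took the genes that rose in all of the other 6 mutant lines, chosen on the responses of those lines with a spread per gene estimated over all 40 arrays, those of SU-DHL-4 included. There were 47 (46 when a GSK126 array of SU-DHL-4 was left out and 50 when a DMSO array was), and 24 of them (51.1%) rose in SU-DHL-4, against 2.14% of all tested genes. Another 20 had a log2 fold change above 0 without a call. The median change was 0.39 in SU-DHL-4, with quartiles of 0.22 and 0.56, whereas the median of the genes' means over the other 6 lines was 0.94. SU-DHL-4 was lower in 28 of the 47 and higher in 0 by the test of the difference, which is partly fixed by choosing genes that were high in the other lines. The share risen in SU-DHL-4 was 37.0% without GSK126 replicate 1, 26.1% without GSK126 replicate 2, 34.0% without DMSO replicate 1 and 30% without DMSO replicate 2. Among the 5 genes that fell in all of those 6 lines 1 fell in SU-DHL-4. Among the 63 that fell in at least 5 of them 6 (9.52%) did, against 0.454% of all tested genes.

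Within these 47 genes the size of the response differed widely. SMKR1, PRKAR2B, GMDS and TTC8, a subunit of the BBSome of cilia, had differences from the mean of the other mutant lines that did not pass the test, of 0.32 (adjusted p = 0.41), 0.18 (0.808), 0.08 (0.808) and 0.02 (0.972), and standard errors of 0.19, 0.25, 0.12 and 0.15. ABAT, the transaminase of GABA breakdown, read 2200 and 2478 under GSK126 against 1578 and 1575 under DMSO. It rose by 0.56 in SU-DHL-4 (adjusted p = 0.0417, and 0.0977 to 0.36 without any 1 array), against a mean of 2.32 in the other mutant lines (difference -1.76 ± 0.16, adjusted p = 6.41e-08). TSC22D1, a leucine zipper regulator, rose by 0.33 (adjusted p = 0.0228, and 0.0765 to 0.227 without any 1 array) against 1.43 (difference -1.10 ± 0.09). TTC8 lost its call without GSK126 replicate 1 (0.084), and the differences of ABAT, TSC22D1, NREP, ABCA1 and SESN3 passed the test without each array in turn. At the other end, NREP read 9123 and 8912 under GSK126 and 8233 and 9623 under DMSO, and the arrays overlapped. Its change of 0.02 stood against 1.20 in the other mutant lines (difference -1.18 ± 0.10, adjusted p = 7.56e-09). ABCA1, the cholesterol exporter, read 3464 and 3521 against 3443 and 3399 (0.03 ± 0.17), with a mean of 1.57 in the others. SESN3, a sestrin that restrains mTORC1, read 2236 and 2288 against 2433 and 2181, a change of -0.03 ± 0.30 where the other mutant lines averaged 1.92.

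TXNIP, which binds thioredoxin and limits glucose uptake, and TNFRSF21, a death receptor, were followed by the study, as known from its paper. TXNIP read 2382 and 2015 on the GSK126 arrays, against 2019 and 1733 on the DMSO arrays, which overlap, and its log2 fold change of 0.23 ± 0.11 missed the threshold (adjusted p = 0.4). It rose in 7 other lines, and the SU-DHL-4 response was 1.00 ± 0.12 below the mean of the other 6 mutant lines (adjusted p = 4.94e-06). TNFRSF21 read 367 and 375 against 302 and 208. Its change of 0.53 ± 0.35 was not called (adjusted p = 0.588), and neither was its difference of -0.36 from the other mutant lines (adjusted p = 0.717).

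**Figure D3:**
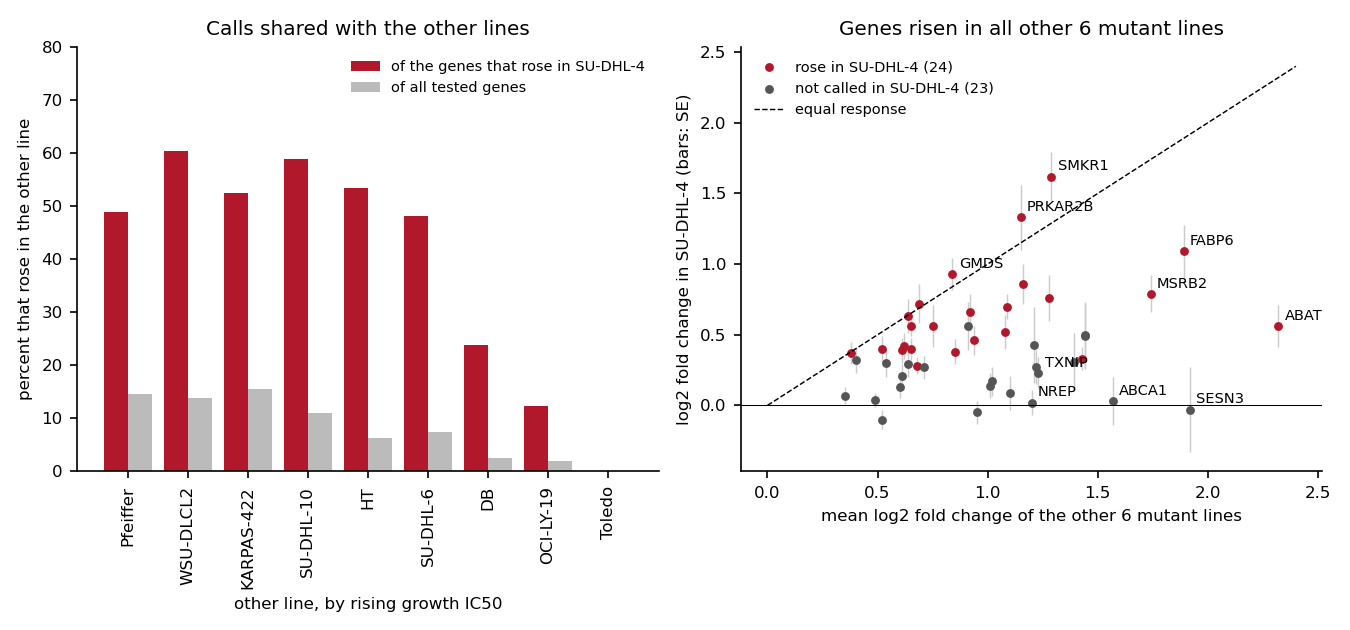
Left, the percent of the 326 genes risen in SU-DHL-4 (red) and of all tested genes (grey) that also rose in each other line, ordered by growth IC50; the red bar is 12.3% in OCI-LY-19 and 0 in Toledo. Right, log2 fold change in SU-DHL-4 (bars, SE) against the mean of the other 6 mutant lines for the 47 genes risen in all of those 6; most points lie below the dashed line of equal response, SMKR1 and PRKAR2B lie on or above it, and SESN3, ABCA1 and NREP lie at 0.

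A smaller set was called in SU-DHL-4 and in no other line in the same direction. Of the 326 risen genes 32 were called risen in no other line, and 4 of the 69 fallen genes were called fallen in no other. Such genes were less frequent here than among all tested genes. Of those only 37.8% were called risen, and 28.3% fallen, in at least 1 other line. In 30 genes this went with a called difference from the mean of the other 6 mutant lines in the same direction. That difference shares the SU-DHL-4 arrays with the calls, so its direction is partly fixed by how the genes were chosen. The 6 with the largest changes are described here. TEAD4 changed by -1.21 in KARPAS-422, where it was called fallen, and by -0.45 to 0.00 in the other lines. The SU-DHL-4 response exceeded the mutant mean by 1.99 ± 0.26 (adjusted p = 1.34e-05), the largest such excess. SLC30A3, a zinc transporter of vesicles, read 338 and 293 under GSK126, against 68.6 and 133 under DMSO, and changed by -0.12 to 0.30 in the other 9 lines. TMEM130 read 138 and 190 against 51.4 and 49.0 (1.40 ± 0.31, adjusted p = 0.00847) and changed by -0.26 to 0.41 elsewhere. CD9, a tetraspanin of the cell surface, read 42.2 and 39.1 against 4.33 and 4.47 (1.40 ± 0.28, adjusted p = 0.00315), so it stayed below the array median in both treatments. The mean over its 3 probe sets changed by 0.37 (adjusted p = 0.557), and its difference from the mutant mean was then also 0.37 (adjusted p = 0.48). KLC3, a kinesin light chain, read 128 and 98.4 against 63.9 and 23.1 (1.17 ± 0.31), and lost its call without DMSO replicate 2 (adjusted p = 0.592), GSK126 replicate 1 (0.256) or GSK126 replicate 2 (0.0987). The mean over the 3 probe sets of KLC3 changed by 0.22 (adjusted p = 0.873), with a difference from the mutant mean of 0.18 (0.863). TMEM130 lost it without DMSO replicate 2 (0.0932) or GSK126 replicate 2 (0.169). The differences of SLC30A3 (0.0623 without GSK126 replicate 1 and 0.111 without DMSO replicate 1), TMEM130 (0.183 without GSK126 replicate 2, 0.0558 without DMSO replicate 1 and 0.0999 without DMSO replicate 2) and KLC3 (0.185, 0.0859 and 0.446 without GSK126 replicate 1, GSK126 replicate 2 and DMSO replicate 2) also missed the threshold. Those of TEAD4, CD9 and ARMCX2 passed it under each omission. SLC30A3 itself lost its call without DMSO replicate 1 (0.0942). ARMCX2, the 6th, was the only fall among them and had changes of -0.14 to 0.76 in the other lines.

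**Figure D4:**
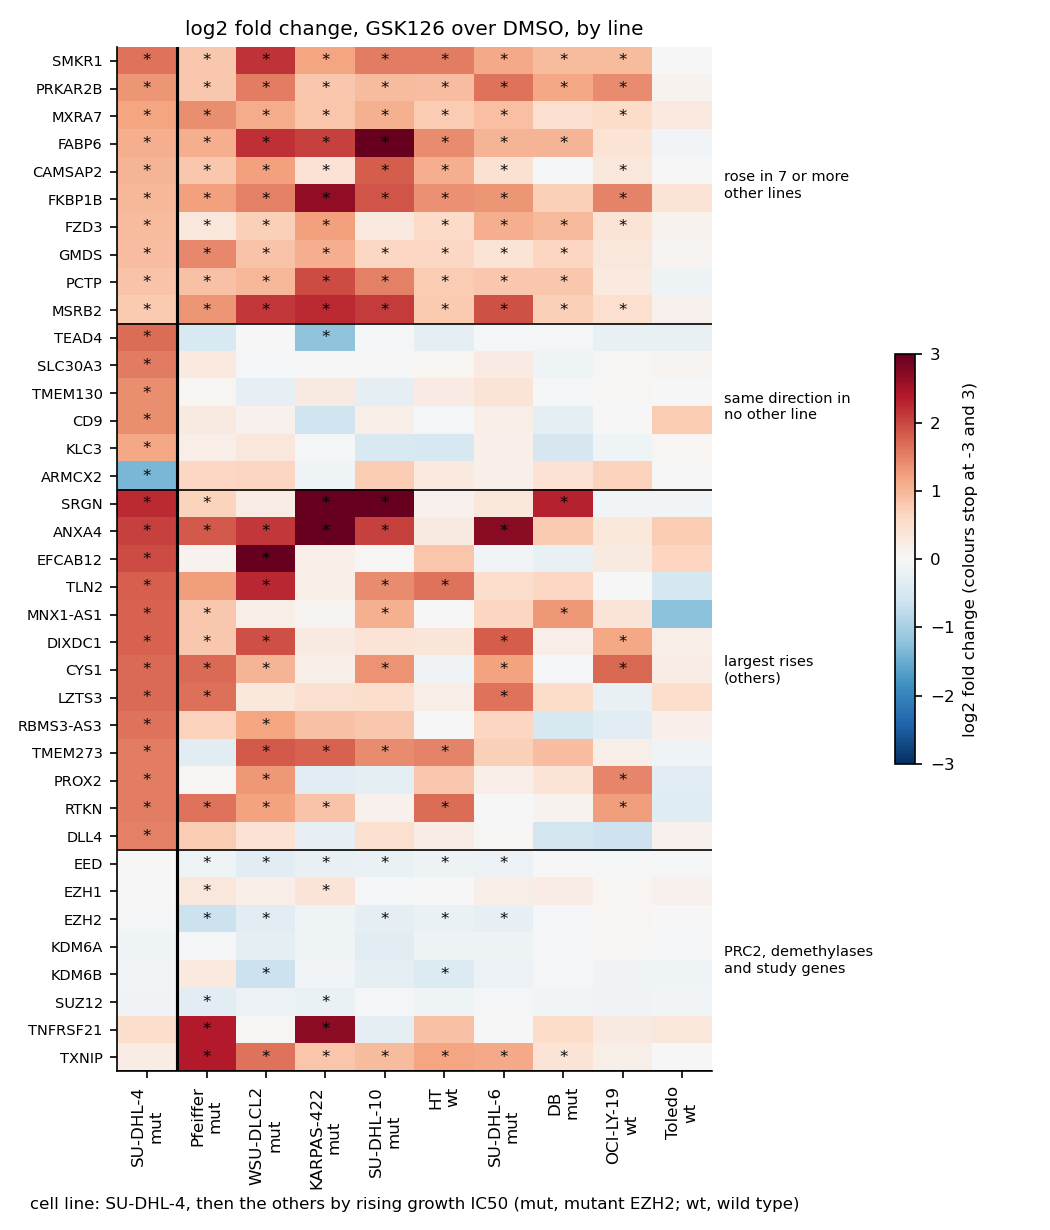
Log2 fold change, GSK126 over DMSO, in SU-DHL-4 (first column) and in the other 9 lines by rising growth IC50, with an asterisk where the adjusted p was under 0.05. Genes such as SMKR1 and PRKAR2B are marked in every column except Toledo, TEAD4 and SLC30A3 are marked as risen in SU-DHL-4 alone, and EZH2, EED and TXNIP carry no mark in SU-DHL-4.

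The response as a whole was set against other lines by testing the difference of log2 fold changes. These tests use the spread between arrays, not between lines. A called difference from the mutant mean can thus lie within the range of the single mutant lines. Against the mean of the other 6 mutant lines 300 genes were higher in SU-DHL-4 (1.97% of those tested) and 365 lower (2.4%). This split depended on scaling: 528 were higher and 140 lower with equal medians over all probe sets, and 763 and 236 with equal medians over the tested genes. GSK126 arrays had higher medians over all probe sets than DMSO arrays in every line but DB, by 0.019 on the log2 scale in SU-DHL-4, by 0.126 to 0.206 in 5 of the other mutant lines and by 0.122 in Toledo. Of the 326 risen genes 77 were higher than the mutant mean, 17 lower and 232 not called, counts that share the SU-DHL-4 arrays with the calls themselves. LMO7, a cytoskeletal LIM protein, changed by 1.42 in SU-DHL-4 and by -0.21 in the mean of the others (difference 1.64 ± 0.28, adjusted p = 0.00056), measured on the brightest of its 4 probe sets. Its own call was lost without DMSO replicate 1 (0.0862), and the mean over the 4 changed by 0.39 (adjusted p = 0.356), with a difference of 0.63 (adjusted p = 0.0647). FABP6, MSRB2 and S100A4 rose in SU-DHL-4 by less than in that mean, with differences of -0.80 ± 0.21, -0.94 ± 0.14 and -1.13, the last with an adjusted p of 9.29e-05. The difference of FABP6 was called with all arrays (0.0242) and missed the threshold without any 1 of them (0.0754 to 0.134).

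DB, the mutant line nearest to SU-DHL-4 in growth IC50, differed from it in 205 genes, 101 higher in SU-DHL-4 (0.664%) and 104 lower (0.684%). SRGN rose in both, by 2.24 in SU-DHL-4 and 2.30 in DB, with a difference of -0.05. JCHAIN, the joining chain of secreted IgM and IgA, read 12235 and 12495 under GSK126 against 12202 and 16233 under DMSO in SU-DHL-4, where the arrays overlapped. Its change was -0.19 in SU-DHL-4 and 3.68 in DB (difference -3.87 ± 0.40, adjusted p = 4.74e-07). PTPRCAP, a partner of CD45, changed by 0.19 in SU-DHL-4 against 2.03 in DB (difference -1.84 ± 0.15). PKIA, an inhibitor of protein kinase A, read 1241 and 1212 under GSK126 and 528 and 479 under DMSO in SU-DHL-4 (1.26 ± 0.26, adjusted p = 0.00398) and fell by 1.07 in DB (difference 2.33 ± 0.36, adjusted p = 0.000282). The call of PKIA in SU-DHL-4 was lost without DMSO replicate 2 (adjusted p = 0.0683).

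The wild type lines of high growth IC50 differed from SU-DHL-4 in 216 genes for OCI-LY-19 (94 higher in SU-DHL-4, 0.618%, and 122 lower, 0.802%) and in 132 for Toledo (99 higher, 0.651%, and 33 lower, 0.217%). SRGN was higher in SU-DHL-4 than in either, by 2.33 ± 0.18 in both comparisons, although with the mean of all its probe sets the difference from Toledo was 1.04 (adjusted p = 0.0946). PFKFB4, a regulator of glycolysis, read 515 and 525 on the GSK126 arrays, against 256 and 231 on the DMSO arrays (1.04 ± 0.25, adjusted p = 0.0184), and fell by 1.07 in OCI-LY-19 (difference 2.11 ± 0.36, adjusted p = 0.00107). Its own call was lost without any 1 array (0.0584 to 0.182). The probe sets of PFKFB4 averaged a change of 0.62 (adjusted p = 0.178), and its difference from OCI-LY-19 was 1.20 (adjusted p = 0.0573). MNX1-AS1 exceeded its response in Toledo by 3.02 ± 0.39 (adjusted p = 4.7e-05), with a change of -1.24 in Toledo that was not called. With equal medians over all probe sets 137 genes were higher and 11 lower than in Toledo, and OCI-LY-19 differed in 96.

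Polycomb genes outside PRC2 moved little. Of 16 tested PRC1 and CBX genes, which encode the complex that reads the mark and modifies histone H2A, 2 rose and 0 fell (against 2.14% and 0.454% of all tested genes), with a list median of 0.02 against 0.01 for all genes. RYBP, a subunit of variant PRC1, read 1355 and 1454 under GSK126 against 1089 and 929 under DMSO (0.47 ± 0.07, adjusted p = 0.00014), and as the mean of its probe sets changed by 0.32 (adjusted p = 0.0819). PCGF5 read 1332 and 1425 against 1010 and 903 (0.52 ± 0.11, adjusted p = 0.00539) and lost its call without DMSO replicate 2 (0.135) or GSK126 replicate 2 (0.0987). None of the 7 PRC2 cofactors, such as JARID2 (-0.04) and AEBP2 (0.04), was called, nor were any of the 20 other chromatin modifiers. HOX genes and developmental transcription factors, textbook targets of Polycomb, had 0 calls among 16 and among 19 tested members, with medians of 0.14 and 0.06. HOXB3 read 439 and 415 against 378 and 302, a change of 0.32 ± 0.25 that missed the threshold (adjusted p = 0.676).

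Annexins and S100 proteins held 4 risen and 0 fallen genes among 13 tested (2.14% and 0.454% of all tested genes rose and fell), with a median of 0.17 against 0.01 for all genes. Beside ANXA4 these were S100A11, S100A4 and S100A13, small calcium-binding proteins. S100A4 read 4131 and 4232 on the GSK126 arrays, against 2685 and 2821 on the DMSO arrays (0.60 ± 0.16, adjusted p = 0.0296), with an adjusted p of 0.14 to 0.207 without any 1 array. ANXA4 alone of the 4 kept its call under every omission. S100A11 rose by 0.88 ± 0.20 on signals of 33.8 and 48.2 against 13.5 and 14.4, and S100A13 by 0.39 ± 0.10. The adhesion and cytoskeleton list had 2 risen of 27, CD9 and TPM1, a tropomyosin of actin filaments, which read 321 and 325 against 169 and 167 (0.87 ± 0.18, adjusted p = 0.00492). Calls ended without DMSO replicate 2 for S100A11 (0.0723), S100A13 (0.332) and TPM1 (0.0573), and without GSK126 replicate 2 for the same genes (0.204, 0.135 and 0.0601 in that order). S100A11 also lost it without DMSO replicate 1 (0.0581) and S100A13 without GSK126 replicate 1 (0.108). Averaged over all their probe sets, S100A13 changed by 0.25 (adjusted p = 0.183) and TPM1 by 0.57 (0.0636). None of 13 cadherins and protocadherins was called.

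Antigen presentation and interferon genes showed a few rises. In the MHC class I list 3 of 16 rose and 0 fell, where 2.14% of all tested genes rose and 0.454% fell, with a median of 0.09 against 0.01 for all genes. HLA-B read 2881 and 3058 under GSK126 against 1899 and 2053 under DMSO (0.58 ± 0.09, adjusted p = 0.00017), and HLA-C read 2552 and 2780 against 1880 and 2154 (0.40 ± 0.08, adjusted p = 0.00168, but 0.0643 without DMSO replicate 1 and 0.0699 without GSK126 replicate 2). The groups were apart in both, but the probes of these near-identical genes can bind each other's transcripts, and the mean over all HLA-B probe sets changed by 0.12 (adjusted p = 0.653). CALR, the chaperone calreticulin, is counted in this list and is described with the chaperones. HLA-DOA was the 1 riser among 16 MHC class II genes (0.39 ± 0.09, adjusted p = 0.0156), and it rose in 8 other lines, but without any 1 array it missed the threshold (0.0854 to 0.142), and the mean over its 5 probe sets changed by 0.02 (adjusted p = 0.988). Of 42 interferon-stimulated genes 3 rose and 0 fell, and the list median was -0.05. IFI6 read 93.3 and 55.6 against 34.4 and 8.46 (1.29 ± 0.27, adjusted p = 0.00568), and HERC6 (1.04 ± 0.28; 0.70, adjusted p = 0.178, with the mean of all probe sets) and IFITM1 (0.47 ± 0.12) also rose. All 3 were dim. Calls ended without DMSO replicate 2 (adjusted p = 0.302 for IFI6, 0.165 for HERC6 and 0.142 for IFITM1) and without GSK126 replicate 1 (0.157, 0.246 and 0.302 in that order). Those of HERC6 (0.172) and IFITM1 (0.13) also ended without DMSO replicate 1, and that of HERC6 without GSK126 replicate 2 (0.136). GBP2, at -1.28, and CXCL10, at 1.19, were not called.

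Lists of B cell genes are read against 2.14% risen and 0.454% fallen of all tested genes, shares at which a short list can hold no call. In the list of B cell identity and receptor genes 2 of 28 rose: CD24, a surface glycoprotein of early and germinal centre B cells, with 3315 and 3375 under GSK126 against 2002 and 1768 under DMSO (0.82 ± 0.09, adjusted p = 2.73e-06), and FCRL3, an Fc receptor-like protein (0.40 ± 0.10). CD24 kept its call without each array in turn, whereas FCRL3 lost it in all 4 (adjusted p = 0.111 to 0.254), and its probe sets averaged a change of 0.16 (0.884). LMO2, a transcriptional partner typical of germinal centre cells, was the 1 call among 19 germinal centre genes, at 1249 and 1376 against 907 and 786 (0.62 ± 0.16, adjusted p = 0.0265). Its adjusted p was 0.311 without DMSO replicate 2, and 0.0814 and 0.254 when GSK126 replicate 1 or 2 was left out, and 0.339 when its probe sets were averaged (a change of 0.37). BCL6, the master repressor of this stage, read 11537 and 10530 under GSK126 and 11841 and 12800 under DMSO, a change of -0.16 ± 0.08 that was not called. Among 20 plasma cell genes 2 rose, HSP90B1 and PRDX4, both of the endoplasmic reticulum, where secreted proteins fold. PRDM1, which drives plasma cell fate, read 52.0 and 59.7 against 6.80 and 24. Its change of 1.20 ± 0.36 missed the threshold (adjusted p = 0.0738), and JCHAIN was not called. None of 22 memory and activated B cell genes and none of 17 NF-kB targets was called.

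Cell cycle, survival, MYC and p53 lists are set beside 2.14% risen and 0.454% fallen among all tested genes. At such shares a list of 30 genes can hold no call. None of 30 mitosis genes passed the test, with 2 of them above 0, a median of -0.14 against 0.01 for all genes and a range of -0.23 to 0.06, against 14 fallen and 1 risen in WSU-DLCL2, where the list median was -0.17. Among 30 DNA replication genes 2 fell and 0 rose, with 5 above 0 and the same median of -0.14, against 20 fallen in WSU-DLCL2. GINS2, a subunit of the replicative helicase, read 4725 and 4721 under GSK126, against 5555 and 6154 under DMSO (-0.31 ± 0.06, adjusted p = 0.00205), and TK1, thymidine kinase, read 2678 and 2563 against 3401 and 3148 (-0.32 ± 0.07, adjusted p = 0.00579). GINS2 lost its call without DMSO replicate 2 (0.113), and TK1 without DMSO replicate 1 (0.0986) or GSK126 replicate 2 (0.103). Averaged over their probe sets, GINS2 changed by -0.15 (adjusted p = 0.835) and TK1 by -0.25 (0.0584). MKI67, a marker of cycling cells, read 2471 and 2617 against 2900 and 2854, a change of -0.18 ± 0.07 (adjusted p = 0.184). CDKN2D, whose call did not outlast any omission, was the 1 call, a fall, among 5 cyclin-dependent kinase inhibitors, and CDKN1A changed by 0.06 and CDKN1B by -0.12 without a call. E2F7, a repressor of the E2F family, was the 1 riser of 16 cyclins and E2F factors (0.35 ± 0.08), but its mean over both probe sets changed by -0.03 and its adjusted p was 0.084 to 0.146 without any 1 array. None of 14 BCL2 family genes was called, BCL2 itself changing by -0.07, and none of 10 death receptor and ligand genes was. In the MYC and ribosome biogenesis list CAD (0.39) and NOP16 (0.36) rose and MXD3 (-0.57) fell among 16, while MYC changed by 0.08. The call of CAD ended without any 1 array (0.0503 to 0.343), that of NOP16 without GSK126 replicate 1 (0.167) or DMSO replicate 1 (0.142) and that of MXD3 without GSK126 replicate 2 (0.0886) or DMSO replicate 2 (0.166). As means of their probe sets, CAD changed by 0.11 (adjusted p = 0.913) and NOP16 by 0.34 (0.627). SESN1 (0.88 ± 0.19) was the 1 riser of 17 p53 targets, with 0.113 without GSK126 replicate 1 and 0.0907 without DMSO replicate 1.

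Of 20 amino acid stress genes, which are induced by ATF4 when amino acids run short, 3 fell and 0 rose (0.454% and 2.14% of all tested genes did), with a median of -0.23 and 5 members above 0. SLC3A2, a subunit of amino acid exchangers, read 1221 and 1206 on the GSK126 arrays, against 1795 and 1669 on the DMSO arrays (-0.51 ± 0.09, adjusted p = 0.000579), and remained called without each array in turn. TRIB3, a pseudokinase, read 4300 and 4099 against 6164 and 6417 (-0.58 ± 0.12, adjusted p = 0.00539), and ASNS, asparagine synthetase, 10871 and 9969 against 12091 and 13345 (-0.29 ± 0.08, adjusted p = 0.0366). All 3 were lower on both GSK126 arrays. The adjusted p of TRIB3 was 0.0839 without DMSO replicate 2 and 0.0824 without GSK126 replicate 2, and that of ASNS was 0.434, 0.388 and 0.0541 without DMSO replicate 2, GSK126 replicate 2 and GSK126 replicate 1. ASNS had an adjusted p of 0.771 as the mean of its probe sets. The list had 1 to 4 fallen genes when single arrays were left out, and 1 risen gene without DMSO replicate 1. ATF4 read 13629 and 12880 against 13830 and 16325 and was not called (-0.18 ± 0.07, adjusted p = 0.243). In WSU-DLCL2 the list median was -0.95, with 13 fallen. Cytosolic aminoacyl-tRNA synthetases, a list chosen after the values were seen, had 5 fallen and 1 risen among 17, where 0.454% of all tested genes fell and 2.14% rose, with a median of -0.21 against 0.01 for all genes. AARS1 (-0.46), SARS1 (-0.36), YARS1 (-0.29), EPRS1 (-0.23) and WARS1 fell, and RARS1 rose by 0.53, with 4750 and 4811 under GSK126 against 3853 and 2819 under DMSO. Without single arrays 1 to 6 synthetases fell. SARS1 kept its call under each omission, AARS1 lost it without GSK126 replicate 2 (0.205) or DMSO replicate 2 (0.182), RARS1 without DMSO replicate 2 (0.0986), and YARS1 and EPRS1 without any 1 array but DMSO replicate 1 (0.0849 to 0.383).

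BAG3, a co-chaperone of stress-induced autophagy, read 373 and 412 under GSK126, against 216 and 214 under DMSO (0.81 ± 0.09, adjusted p = 2.73e-06), and HSPB1, a small heat shock protein, read 645 and 605 against 353 and 414 (0.68 ± 0.17, adjusted p = 0.0239). These were the 2 risers among 8 heat shock genes, whose median was 0.03, and HSPB1 had an adjusted p of 0.0633 to 0.177 without any 1 array. Among 20 chaperones of the endoplasmic reticulum, also listed after the values were seen, 5 rose and 1 fell (2.14% and 0.454% of all tested genes did), with a median of 0.13 against 0.01 for all genes. CALR read 4410 and 4529 against 2857 and 2880 (0.64 ± 0.07, adjusted p = 2.66e-06), and HSPA5, the chaperone BiP, read 6550 and 7166 against 4426 and 5047 (0.53 ± 0.07, adjusted p = 1.18e-05). Neither pair of groups overlapped. The rise of CALR was not particular to SU-DHL-4. It was also called risen in WSU-DLCL2 (0.69) and SU-DHL-10 (0.51), and called fallen in KARPAS-422 (-0.22) and SU-DHL-6 (-0.32). Pfeiffer (0.19) and DB (0.12) had no call for CALR, and its mean over the other 6 mutant lines was 0.16. HSP90B1 (0.44), PRDX4 (0.33) and PPIB (0.31) rose too, and SEL1L (-0.27), which serves the degradation of misfolded proteins, fell. PRDX4 kept its call under each omission. SEL1L lost it under all 4 (0.0739 to 0.174), PPIB under all but that of DMSO replicate 2 (0.0749 to 0.111) and HSP90B1 under all but that of GSK126 replicate 1 (0.0606 to 0.419). CALR exceeded the mean of the other 6 mutant lines by 0.47 (adjusted p = 0.000293) and HSPA5 by 0.39 (0.00165, but 0.0549 without GSK126 replicate 2).

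Another pair of lists, both put together with the values in view, held several risers, and both are read against 2.14% risen, 0.454% fallen and a median of 0.01 for all tested genes. Of 11 tested metallothioneins and zinc exporters 4 rose and 0 fell, with a median of 0.33: MT1X (0.42 ± 0.08), MT2A (0.56 ± 0.15), SLC30A1 (0.45 ± 0.09) and SLC30A3. MT2A read 2239 and 2166 under GSK126 against 1435 and 1546 under DMSO, and SLC30A1, the zinc exporter of the plasma membrane, 737 and 801 against 555 and 562. MT1X kept its call under each omission, MT2A lost it under each (0.152 to 0.213), and SLC30A1 lost it without GSK126 replicate 2 (0.102) and SLC30A3 without DMSO replicate 1 (0.0942). Of 35 tested genes on a cilium list named for the transition zone and the BBSome 6 rose and 0 fell, with a median of 0.13. Beside CYS1 they were B9D1 (0.86 ± 0.20), ARMC9 (0.81 ± 0.15), TTC8 (0.72 ± 0.14), RPGRIP1L (0.70 ± 0.15) and TMEM237 (0.47 ± 0.09). B9D1 read 843 and 821 against 496 and 407. TMEM237 read 569 and 644 against 447 and 418, and unlike the others it was called fallen in 3 other lines, with a difference from the mutant mean of 0.64 (adjusted p = 0.000138). Without single arrays the number of risen cilium genes was 3, 2, 6 and 1 (without GSK126 replicate 1, GSK126 replicate 2, DMSO replicate 1 and DMSO replicate 2). The genes lost were ARMC9 (0.0891 and 0.056 without GSK126 replicate 2 and DMSO replicate 2), TMEM237 (0.0987 and 0.0674), CYS1 (0.0884 and 0.0864), RPGRIP1L (0.0851 and 0.0897 without GSK126 replicate 1 and DMSO replicate 2), TTC8 (0.084 without GSK126 replicate 1) and B9D1 (0.11, 0.0987 and 0.234 without all but DMSO replicate 1). Among 444 zinc finger genes named ZNF, 5 rose and 5 fell, led by ZNF32, which read 90.8 and 100 against 20.6 and 24.6 (1.49 ± 0.19, adjusted p = 8.11e-06).

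Other signalling and metabolic lists are compared with 2.14% risen and 0.454% fallen among all tested genes, so that a list without a call is not unusual. TGF-beta and BMP signalling had 3 risers among 20: ACVR1, a BMP receptor (0.87 ± 0.21), ID2, an inhibitor of DNA binding (0.66 ± 0.17), and SMURF2, a ubiquitin ligase of the pathway (0.40 ± 0.11). ID2 read 1325 and 1354 under GSK126, against 891 and 796 under DMSO, and its adjusted p was 0.0597 to 0.282 without any 1 array. ACVR1 lost its call without GSK126 replicate 1 (0.19) or DMSO replicate 2 (0.452), and SMURF2 without those arrays (0.218 and 0.44) or GSK126 replicate 2 (0.115). As means of all probe sets, ID2 changed by 0.23 (adjusted p = 0.48) and SMURF2 by 0.16 (0.71). PFKFB4 was the 1 riser among 24 glycolysis and hypoxia genes, and lost its call without any 1 array. None of 18 cholesterol and fatty acid synthesis genes was called, with a median of 0.03, where WSU-DLCL2 had 13 risen and a median of 0.48. No call fell among 19 lysosome, 11 histone, 24 chemokine and cytokine or 18 protein kinase and phosphatase signalling genes.

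**Figure D5:**
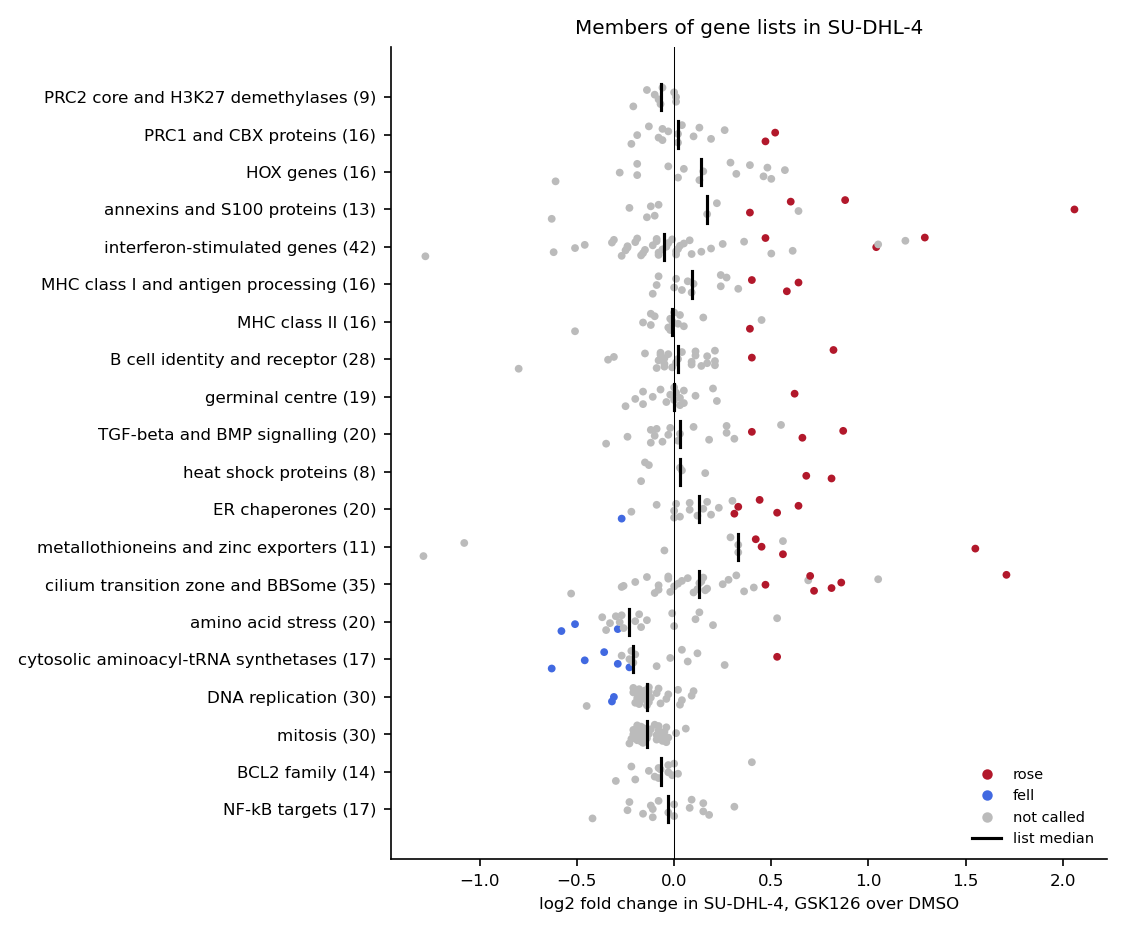
Log2 fold change in SU-DHL-4, GSK126 over DMSO, of the tested members of 20 gene lists, with the number tested in brackets, called members in red (rose) or blue (fell) and the list median as a black bar. The amino acid stress and aminoacyl-tRNA synthetase medians lie at -0.23 and -0.21, the metallothionein and zinc exporter median at 0.33, and the mitosis and DNA replication members lie close together at -0.14.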

How the data were processed

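Gene expression was measured on 1-colour Affymetrix arrays of biotin-labelled RNA, and the deposited values are log2 MAS5 signals, per the submitters' processing notes, which give no version. By their values, the authors' arrays share a 2% trimmed mean of 500. The table holds 54675 probe sets on 40 arrays, of which 41091 have a single symbol, 1801 several, 11721 none and 62 are controls. Symbols come from GEO's platform annotation. A gene was represented by its probe set of highest mean signal and tested if that exceeded the array median on at least 2 arrays. Signals were taken back to the linear scale, 17.72 was added and limma 3.58.1 in R 4.3.3 was fitted on log2 values of all 40 arrays, with 20 group means, an intensity trend, two-sided tests and Benjamini-Hochberg adjustment over 15211 genes (called at 0.05). Fold changes on this scale understate those of dim genes. The number of arrays limits the precision.

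Named genes were the 16 largest rises and 10 largest falls among called genes whose treatments did not overlap, PRC2 genes, demethylases and study genes, the 10 largest called in the same direction in 7 or more other lines, up to 4 called members of each list, up to 5 called genes in each direction of each difference between lines, and 6 genes called in no other line. Members of the added lists, the 47 genes shared by the other mutant lines and a few uncalled list members were named after their values were seen. The members, lists and comparisons were chosen with earlier results of these data known, and 5 lists were added after the values were seen. Same-numbered arrays deviated together with r = 0.069 in SU-DHL-4, the highest of the 10 lines, which ran from -0.045 to 0.069. Arrays were not paired by number in the main fit, and the labels do not say whether the numbers pair them. With the number as a block, SU-DHL-4 had 279 calls against 395. Only 79.6% of tested genes had a promoter in the reference table, so no comparison of promoters between called and other genes was made. Alternatives varied the pseudocount, filter, scaling, probe sets, variance model, arrays fitted, replicate block and each SU-DHL-4 array left out.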

Additional observations from a re-analysis of the deposited data

Results flagged for a closer look

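The responses of some genes differed between SU-DHL-4 and other lines by a test of the difference itself (limma, adjusted p under 0.05), and all values here are differences of log2 fold changes, SU-DHL-4 minus the other line or lines. They are the largest in each direction and were picked for size, so they are descriptions.

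Against the mean of the other 6 mutant lines the response was higher for TEAD4 (1.99), LMO7 (1.64), MYF6 (1.60), SLC30A3 (1.49), EFCAB12 (1.42), CD9 (1.41), TMEM130 (1.37) and KLC3 (1.22). It was lower for IPO11 (-2.14), SESN3 (-1.95), FRAS1 (-1.89), HCP5 (-1.82) and ARMCX2 (-1.78). MYF6 is a muscle regulatory factor, and its own change in SU-DHL-4 was 1.19. EFCAB12 itself changed by 1.96 in SU-DHL-4 and by more, 3.27, in WSU-DLCL2. In the remaining mutant lines it changed by -0.23 to 0.19. The differences of LMO7 (0.63), CD9 (0.37), KLC3 (0.18) and FRAS1 (-0.41) missed the threshold when a gene's probe sets were averaged.

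Against DB the response was higher for BMERB1 (3.00), MYF6 (2.60), PKIA (2.33), EFCAB12 (2.19) and RBMS3-AS3 (2.13). It was lower for JCHAIN (-3.87), LGALS1 (-2.21), GAL3ST1 (-2.19), SHROOM3 (-1.86) and PTPRCAP (-1.84). LGALS1 encodes galectin 1. Averaged over probe sets, BMERB1 (1.81) and SHROOM3 (-0.68) missed the threshold.

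Against OCI-LY-19 the response was higher for ARHGEF10 (2.48), SRGN (2.33), SPARC (2.16), PFKFB4 (2.11) and RBMS3-AS3 (1.99). It was lower for IPO11 (-2.71), SMPDL3B (-2.15), ARMCX2 (-2.04), IGFBP4 (-2.03) and ZNF90 (-2.02). IGFBP4 changed by 0.02 in SU-DHL-4 itself. With probe sets averaged, ARHGEF10 (0.93), SPARC (1.55), PFKFB4 (1.20) and SMPDL3B (-0.89) did not pass.

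Against Toledo the response was higher for MNX1-AS1 (3.02), MIR210HG (2.35), SRGN (2.33), GSTO2 (2.20) and VAT1L (2.08). It was lower for LPAR2 (-1.84), PTPN22 (-1.78), OAS1 (-1.55), LINC00487 (-1.53) and HCN3 (-1.30). With the mean over probe sets, MIR210HG (1.01), SRGN (1.04), GSTO2 (1.32), VAT1L (2.08), LPAR2 (-0.98), PTPN22 (-0.59) and OAS1 (-0.37) did not pass.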

How the results depend on the processing

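SU-DHL-4 had 395 calls, against 104 with its 4 arrays fitted alone (79 of them shared), 224 with equal medians over all probe sets and 171 to 359 without 1 array. Pseudocounts of 1 and 100 gave 345 and 534. The difference from the mean of the other 6 mutant lines gave 999 genes with equal medians over the tested genes (chosen after seeing the data) and 257 to 556 without 1 array, against 665. That from DB gave 135 to 260 without 1 array, against 205. That from OCI-LY-19 gave 96 with equal medians and 118 to 213 without 1 array, against 216. That from Toledo gave 87 with the mean of all probe sets, 70 with the replicate number as a block and 56 to 110 without 1 array, against 132. With the block, SU-DHL-4 had 279 calls, the difference from the mutant mean 455, that from DB 151 and that from OCI-LY-19 157. The share of risen genes also risen in another line was 84.6% to 95.3% without 1 array. The share of the genes common to the other mutant lines was 26.1% to 37.0%. E2F7 changed sign (-0.03) with the mean of all probe sets. Of 75 named called genes, 8 kept their call in all 16 settings: CALR, CAMSAP2, CD24, FZD3, GMDS, SLC3A2, SMKR1 and SRGN. The cause of these shifts was not tested. Some of the fits also held fewer arrays. With 2 arrays a group, small changes and dim genes are poorly resolved.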
